A study of Mus musculus with 192 samples.

Results

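Insr, Irs1 and Irs2 encode the insulin receptor and the first proteins that the activated receptor phosphorylates inside the cell. They were chosen by name, as 3 of the 43 target genes of a NanoString nCounter panel on amylin, insulin and leptin signalling, and were followed through 192 RNA pools from the brains of L44 mice. L44 mice carry the tripro-hA transgene, a non-aggregating human amylin variant driven by the rat insulin 2 promoter on the FVB/n background. Homozygous (HOM), hemizygous (HEM) and nontransgenic (NON) mice all came from HEM parents, and all were male and ate standard chow.

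Mice were taken at T1 (99 to 101 days old), at T2 (diabetes onset in HEM and HOM, 90 to 286 days, with NON of similar age) and at T3 (400 to 408 days), in the morning (AM) or the early afternoon (PM). The labels recorded 12 of the 24 T3 NON pools, 13 of the 23 HEM pools and 18 of the 22 HOM pools as previously diabetic, so the T3 groups were mixed in history. Each brain gave a hindbrain piece with the cerebellum (46 pools), a midbrain piece with the forebrain and hypothalamus (49 pools), a left cortex (48 pools) and a right cortex (49 pools). A pool held RNA of 1 or 2 mice, 341 mouse tissues in all. Pools of a group held different mice, whereas the 4 regions came from the same mice, so results in different regions were not independent. For 12 HEM pools at T1 no collection time was labelled. They were kept out of the tests between groups of a region, and entered the comparison of regions, the means by time point and the correlations. HEM at T1 had no pool labelled AM.

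Insulin binding activates the kinase of its receptor, which phosphorylates insulin receptor substrates. Phosphorylated substrates recruit phosphoinositide 3-kinase, and the signal passes through Pdk1 to Akt and on to Gsk3, mTor, Foxo1 and Pde3b, while the phosphatase Ptp1b and the inhibitor Socs3 act against it. In the brain this pathway is known for its part in feeding, body weight and glucose control. In liver, Irs2 is known as the substrate whose mRNA follows feeding and fasting most closely.

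Promoter sequences of Irs1 and Irs2 are shown because both substrates were lower in the PM in left cortex. They are the 250 bases before each gene's start, taken from RefSeq on GRCm38.p6. Irs1 lies on the minus strand of chromosome 1 at chr1:82291440-82291689, and Irs2 on the minus strand of chromosome 8 at chr8:11008930-11009179. Of the 3 genes, 2 were matched in the promoter table, and Insr is named only. Capitals mark matches to CACGTG, the E-box that the clock proteins bind among others, and to TGACG, a cyclic AMP response half-site, on either strand.
Irs1: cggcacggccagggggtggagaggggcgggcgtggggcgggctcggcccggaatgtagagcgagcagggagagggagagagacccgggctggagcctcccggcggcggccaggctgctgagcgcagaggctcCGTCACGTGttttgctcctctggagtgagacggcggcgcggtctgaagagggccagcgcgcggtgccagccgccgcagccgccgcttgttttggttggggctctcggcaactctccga
Irs2: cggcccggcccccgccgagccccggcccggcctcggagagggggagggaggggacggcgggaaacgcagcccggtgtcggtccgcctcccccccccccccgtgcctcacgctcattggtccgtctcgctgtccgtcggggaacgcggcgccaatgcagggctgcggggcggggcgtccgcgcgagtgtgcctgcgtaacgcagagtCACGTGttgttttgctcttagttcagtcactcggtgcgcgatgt
Each promoter held 1 CACGTG, its first base 115 bases before the start in Irs1 and 44 bases before it in Irs2. TGACG was found in Irs1 on the opposite strand, where it overlapped the E-box, and was not found in Irs2. A forkhead motif, TGTTTAC, was in neither window, and other forms of forkhead or insulin response sequence were not searched for. Among 32817 promoters of this length, 6.02% held CACGTG, 17.7% held TGACG and 3.16% held TGTTTAC. The GC content was 72.4% for Irs1 and 72.8% for Irs2, against a median of 52.4% over all promoters. The shares were not matched for GC content, so they do not give the share expected in windows like these. These matches describe the letters of the windows, and binding was not measured.

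All 3 transcripts were above background (2 SD over the mean of the negative controls) in 192 of 192 pools. Raw counts ran from 51 to 6008 for Insr (median 2986.5), from 11 to 816 for Irs1 (median 367.5) and from 75 to 8122 for Irs2 (median 3050). Below, a level is a normalised count, that is, counts per 1000 counts of the geometric mean of the 3 reference genes of the same pool. One probe pair read each gene, so levels of different genes were not compared. Differences are on the log2 scale from edgeR's quasi-likelihood test, with p-values adjusted by Benjamini-Hochberg over the 43 target genes, and "called" means an adjusted p under 0.05.

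Depth differed with region and age. The median total target count fell from 153238 at T1 to 89256 at T3 in hindbrain, from 393475 to 151641 in left cortex and from 430111 to 144687 in right cortex, and was 223175 and 238912 in midbrain. The median reference gene mean moved the same way, from 4530 to 3652 counts in hindbrain, 7505 to 3685 in left cortex and 8272 to 3569 in right cortex, against 5055 and 6171 in midbrain. At T3, 3 hindbrain pools held much less RNA than the others: NON PM pool 5/6 (reference mean 511), NON AM pool 7 (267) and HOM AM pool 9 (131). Results that turned on them are given without them too.

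The midbrain label was checked with hypothalamic markers. Hcrt (orexin) averaged 136 in midbrain and 4.73 to 5.93 in the other regions, and Mch averaged 4136 against 16.9 to 26.9. Agrp (19.2 against 4.85 to 11.1) and Pomc (57.6 against 10.2 to 36.0) were also highest in midbrain over all time points, although Agrp at T1 was 15.1 in both midbrain and hindbrain, while Hdc was 44.8 in midbrain and 42.6 in hindbrain. The panel holds no marker of cortex, cerebellum, glia or vessels. In these bulk pools, fewer cells that express a gene and less of its RNA per cell cannot be told apart.

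**Figure D1:**
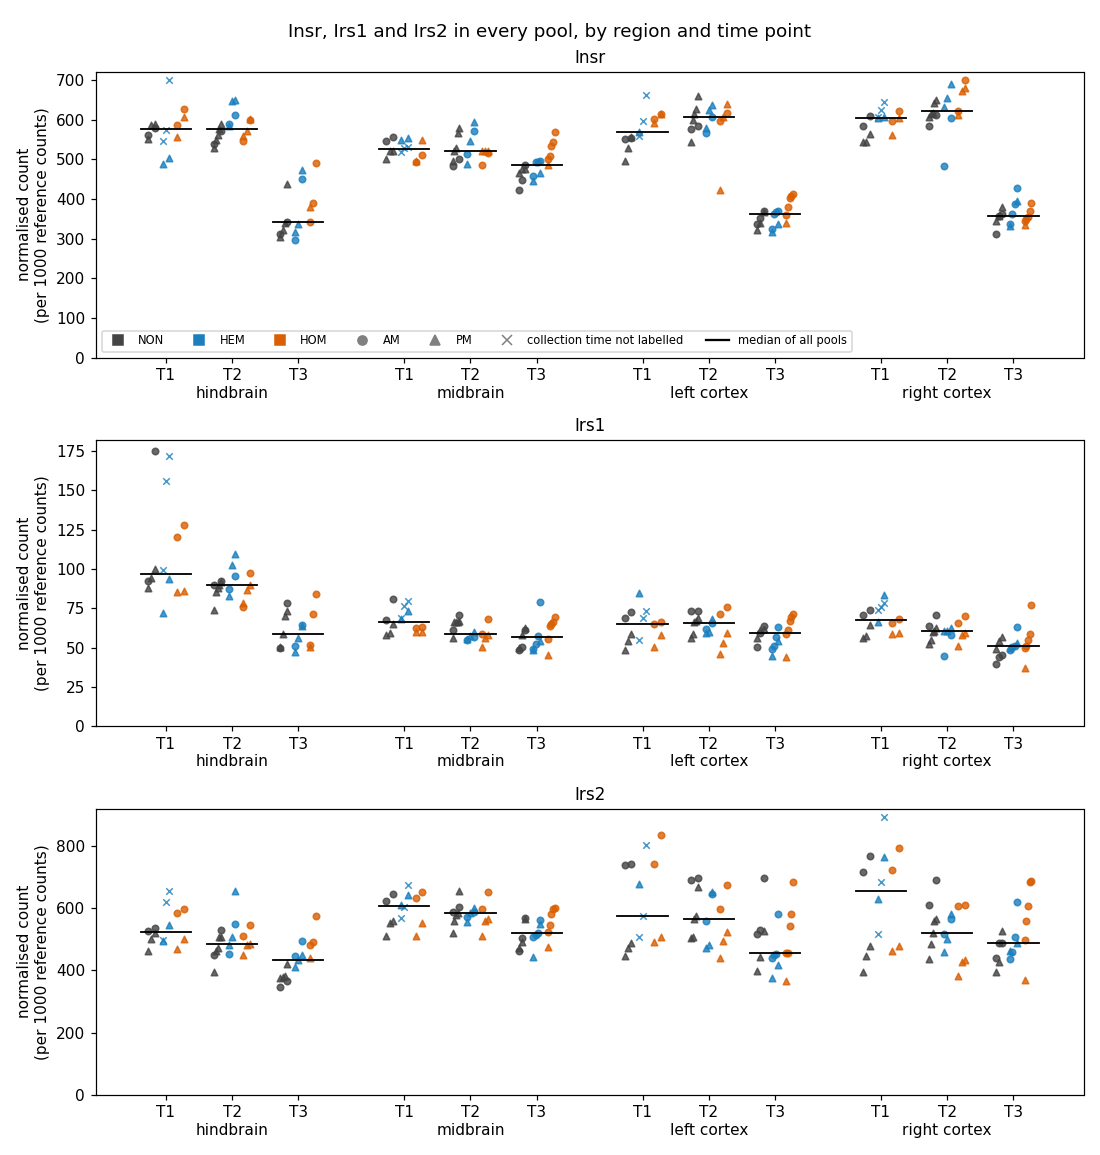
Normalised counts of Insr, Irs1 and Irs2 (per 1000 reference counts) in every pool, by region and time point, with genotype as colour, collection time as symbol and the median as a line. Insr at T3 sits lower in hindbrain and both cortices, where means are 359 to 369, than in midbrain, where the mean is 487.

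Insr, the receptor itself, differed modestly between regions at T1 and T2, when midbrain was the lowest, and parted further at T3, when midbrain was the highest. At T1 the mean was 576 ± 51.5 in hindbrain (SD, n = 14), 527 ± 21.8 in midbrain (n = 14), 577 ± 43.2 in left cortex (n = 13) and 594 ± 31.1 in right cortex (n = 14). At T2 it was 581 ± 34.3, 527 ± 33.9, 594 ± 53.1 and 628 ± 49.96 in the same order (n = 17 each). At T3 it was 369 ± 64.9 in hindbrain (n = 15), 359 ± 28.4 in left cortex (n = 18) and 361 ± 27.4 in right cortex (n = 18), whereas midbrain fell less, to 487 ± 36.2 (n = 18). Among T3 pools, left cortex spanned 316 to 411 and midbrain 422 to 568, so these regions did not overlap, whereas right cortex (311 to 427) and hindbrain (296 to 492) overlapped midbrain.

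The right cortex of NON mice shows the fall pool by pool. At T1 Insr was 586 and 611 in the AM pools and 543, 564 and 543 in the PM pools. At T2 the 7 pools ran from 585 to 651, with 613 and 585 in the AM. At T3 the AM pools gave 311, 358 and 362 and the PM pools 357, 379 and 346, so every T3 pool lay below every earlier one. The difference was -0.70 between T3 and T1 (SE 0.06, adjusted p = 4.78e-12) and -0.80 between T3 and T2 (SE 0.06, adjusted p = 5.31e-14, edgeR).

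In right cortex Insr was called lower at T3 in each genotype, in 6 of 6 comparisons with T1 or T2, at -0.87 to -0.69. The genotypes differed in collection time here and in the other regions. NON comparisons and HEM against T2 averaged AM and PM, HEM against T1 used PM pools, and HOM used AM pools because it had 1 PM pool at T3. Of all gene tests in those comparisons 45.0% were called lower. Insr was called lower in 5 of 5 in left cortex (-0.81 to -0.63), where 46.0% of all gene tests were called lower, and in 6 of 6 in hindbrain (-0.75 to -0.41), where 41.9% were. The groups did not overlap in any of these 17 comparisons, and over all 43 genes T3 pools lay below all earlier ones in 43.4% of gene tests in right cortex, 36.3% in left cortex and 46.9% in hindbrain. In midbrain 4 of 6 were called, at -0.28 to -0.16 among those called, against 29.5% of all gene tests, and 2 did not overlap, beside 27.9% of gene tests with all T3 pools below. In NON midbrain the T3 minus T1 difference was -0.21 (SE 0.05, adjusted p = 4.12e-04), from 534 to 462. Without the first reference gene it was -0.07 (adjusted p = 0.451), and no midbrain comparison of T3 was then called for Insr, Irs1 or Irs2, while the calls over all midbrain genes went from 76 to 3 lower. In hindbrain that setting left 3 of the 6 Insr calls, and in the cortices it left all 11. In hindbrain the HEM difference of T3 from T1 (-0.41, adjusted p = 0.0462) lost its call in 28 of the fits that left out a pool. Without the 3 low-RNA pools the NON hindbrain difference of T3 from T1 was -0.71 (adjusted p = 6.29e-05), and the HOM difference of T3 from T2 went from -0.48 (adjusted p = 0.0351) to -0.46 (adjusted p = 0.0561).

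Many genes moved with Insr at T3 on this scale. The median over all 43 genes was -0.37 to -0.28 in right cortex, -0.45 to -0.22 in left cortex, -0.54 to -0.26 in hindbrain and -0.20 to -0.07 in midbrain. Scaling by TMM, which centres on the target genes themselves, left Insr called lower in 6 of 6 right cortex comparisons (-0.53 to -0.31) and 5 of 5 left cortex comparisons (-0.39 to -0.30). Under TMM it was called lower in 3 of 6 in hindbrain, and in midbrain in none, with 2 called higher. TMM also changed the share of lower among all called tests from 82.9% to 47.8% in right cortex, from 86.8% to 50% in left cortex, from 94.7% to 46.8% in hindbrain and from 98.7% to 16.7% in midbrain. Depth fell at T3 in the 3 regions where Insr fell most, and its part in the result was not tested.

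**Figure D2:**
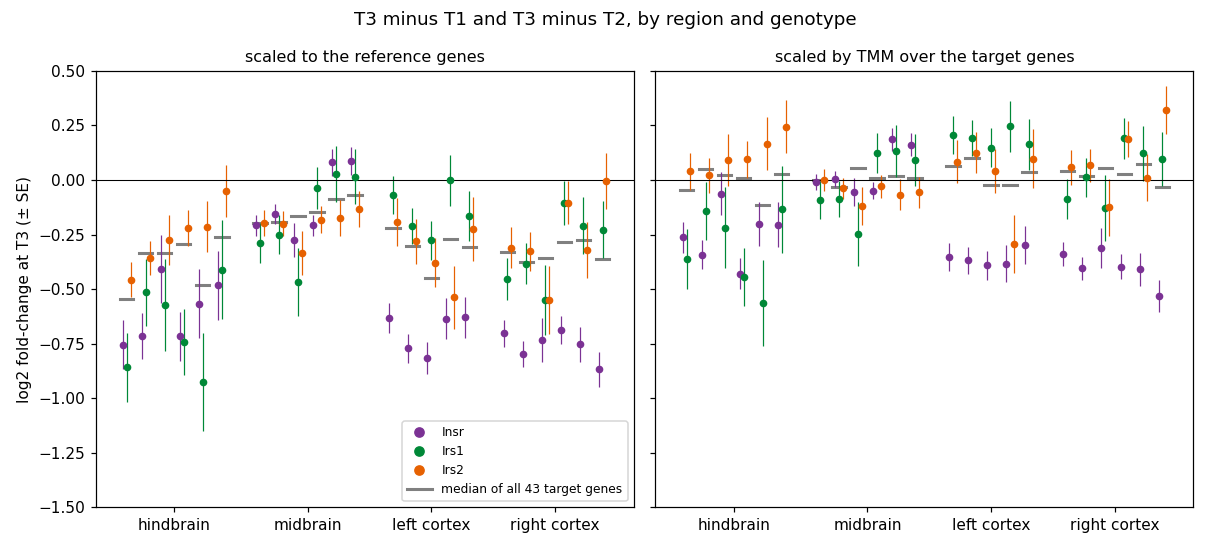
Log2 fold-change (± SE) of T3 against T1 and T2 by region and genotype, 1 point per gene and comparison, with the median of all 43 genes as a grey bar, scaled to the reference genes (left) or by TMM (right). In both cortices Insr lies below the median of all genes under both scalings, at -0.87 to -0.63 on the left and -0.53 to -0.30 on the right.

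Whether the T3 change differed between regions was tested within the same mice, a comparison chosen after the values had been seen. The T3 change of Insr (T3 against T1 and T2 together) differed from that in midbrain by -0.70 in hindbrain (SE 0.05, adjusted p = 7.12e-24), -0.60 in left cortex (adjusted p = 1.56e-27) and -0.65 in right cortex (adjusted p = 3.07e-30). Pieces were matched only where their pools carried exactly the same mouse numbers, so 7 of the 15 T3 hindbrain pools entered this test, 2 of them low in RNA. Others that shared 1 mouse with a pool of another region were not matched. The T3 HOM PM pools of left cortex and midbrain were matched by number, although the labelled age of their second mouse differed. Without the low-RNA pools the hindbrain difference was -0.70 (adjusted p = 3.16e-20). Of the 43 genes, 60.5%, 60.5% and 55.8% were called in these contrasts, and their medians were -0.31, -0.15 and -0.15. Under TMM the Insr differences were -0.49, -0.32 and -0.39, all still called. The order of the regions depended on age. Right cortex exceeded midbrain by 0.17 at T1 (adjusted p = 2.56e-05) and 0.25 at T2 (adjusted p = 4.62e-09), and left cortex by 0.13 and 0.17 (adjusted p = 0.00183 and 1.68e-05). Midbrain was below hindbrain at T1 (-0.13, adjusted p = 0.00173) and T2 (-0.14, adjusted p = 2.41e-04) and above it at T3 (0.57, adjusted p = 1.06e-13). Over all time points no pair of regions was called for Insr with the 3 reference genes as scale. Of all genes 81.4% to 86.0% were called in the contrasts with hindbrain. Under TMM midbrain and both cortices were called below hindbrain (-0.20, -0.24 and -0.20), and without the third reference gene both cortices were (-0.20 and -0.16). Of 15 alternatives, 5, 4 and 5 called midbrain, left cortex and right cortex above hindbrain.

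Insr was not called between collection times. The PM minus AM difference, averaged over genotypes and time points, ran from -0.06 in left cortex to 0.00 in hindbrain (SE 0.02 to 0.06 across regions), and none of 28 comparisons within a group was called, where 0% to 3.65% of gene tests by region were called lower. Between genotypes it was called in 1 of 39 comparisons. In midbrain at T3 in the AM, HOM pools gave 508, 501, 533, 544 and 568, and NON pools 447, 422 and 485. The groups did not overlap, at 531 against 451 (0.23, SE 0.06, adjusted p = 0.00445), where 12 of all 43 genes were called higher and the median gene was at 0.12. How many of the 43 genes did not overlap between genotypes was not counted, here or for Irs1 and Irs2 below. Over all midbrain comparisons of HEM or HOM with NON, 5.58% of gene tests were called higher. Without NON pool 3/4 the adjusted p was 0.0578. The difference was 0.11 under TMM (adjusted p = 0.228) and 0.13 without the first reference gene (adjusted p = 0.390).

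Irs1, a substrate best known for insulin and growth factor signalling in muscle, fat and bone, stood out in the hindbrain on the reference gene scale. Its mean was 86.9 ± 28.5 in hindbrain (SD, n = 46), 61.3 ± 8.45 in midbrain (n = 49), 61.4 ± 8.96 in left cortex (n = 48) and 59.2 ± 10.2 in right cortex (n = 49). Compared within the same mice, midbrain was lower than hindbrain by -0.52 (SE 0.05, adjusted p = 1.17e-20), left cortex by -0.52 (adjusted p = 1.53e-20) and right cortex by -0.58 (adjusted p = 5.71e-24). Of all genes, 81.4%, 83.7% and 86.0% were called in these contrasts. With the positive control probes as scale no call was left. Midbrain minus hindbrain was then -0.12 (adjusted p = 0.411), and left and right cortex turned to 0.02 (adjusted p = 0.861) and 0.23 (adjusted p = 0.114). Hindbrain was the higher piece in 34 of 38 pools against midbrain, 32 of 36 against left cortex and 36 of 36 against right cortex. The other pairs of regions were not called for Irs1, while 83.7% of genes were called for each cortex against midbrain and 0% for right against left cortex.

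Against midbrain and left cortex the hindbrain excess was measured at T1 and T2. Irs1 in hindbrain averaged 112 ± 33.7 at T1 (n = 14), 89.1 ± 9.08 at T2 (n = 17) and 61.3 ± 11.8 at T3 (n = 15). At T1, 5 pools lay at 120 to 175, namely NON AM pool 2/7 (175), HEM pools 1/2 (172) and 5/6 (156) with no labelled time, and HOM AM pools 3/4 (128) and 6/7 (120). The other 9 spanned 71.9 to 100.0, and no pool labelled PM was among the 5. Hypothalamic markers in hindbrain were also higher at T1 than at T2, with Hcrt at 9.38 against 4.15, Mch at 34.6 against 24.9 and Agrp at 15.1 against 7.12, while Pomc was 33.7 against 51.0. Their part in the Irs1 values was not tested. Within single time points, the midbrain minus hindbrain difference was -0.71 at T1, -0.56 at T2 and 0.03 at T3. Right cortex lay below hindbrain in all matched pools (36 of 36), those of T3 included. Over all T3 pools the mean was 51.8 ± 8.88 in right cortex (n = 18), against 61.3 in hindbrain. The T3 change in hindbrain relative to midbrain was -0.65 (adjusted p = 3.58e-08), on the same 7 T3 hindbrain pools, -0.70 without the low-RNA pools (adjusted p = 4.45e-08) and -0.42 under TMM, while relative to midbrain the cortices gave -0.02 in left cortex and -0.15 in right cortex (adjusted p = 0.0902), neither called. Under TMM left cortex was at 0.26 (adjusted p = 5.15e-04), and without the first reference gene right cortex was at -0.28 (adjusted p = 0.00111).

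**Figure D3:**
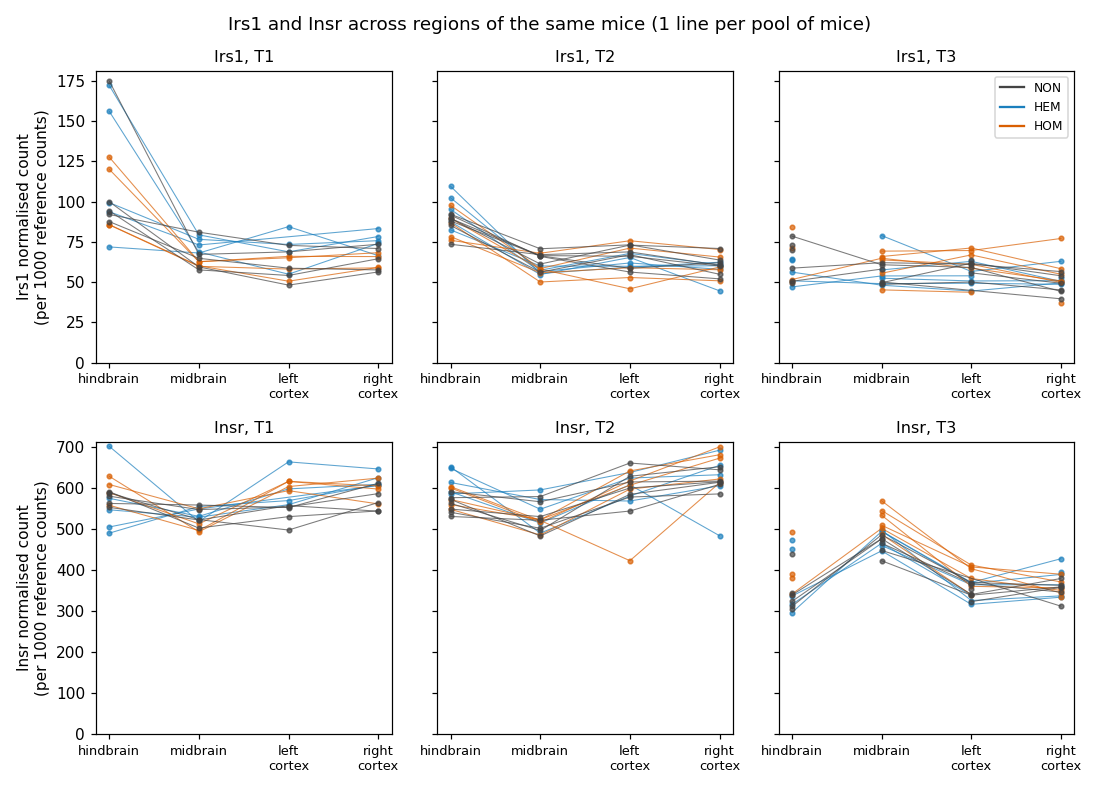
Irs1 (top) and Insr (bottom) normalised counts (per 1000 reference counts) in the 4 regions of the same mice at T1, T2 and T3, 1 line per pool of mice, coloured by genotype. Irs1 is highest in hindbrain at T1 (mean 112) and T2 (89.1). At T3 its mean is 61.3 in hindbrain, 57.5 in midbrain, 57.9 in left cortex and 51.8 in right cortex. Insr at T3 is highest in midbrain (487).

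In NON hindbrain Irs1 averaged 114 at T1 (87.6 to 175) and 63.6 at T3 (49.6 to 78.6), a difference of -0.86 (SE 0.16, adjusted p = 2.79e-05) with no overlap, and -0.98 (adjusted p = 3.55e-05) without the 3 low-RNA pools. Of the T3 comparisons Irs1 was called lower in 5 of 6 in hindbrain (-0.92 to -0.52 among those called), 3 of 6 in midbrain, 3 of 6 in right cortex and 2 of 5 in left cortex, beside 41.9%, 29.5%, 45.0% and 46.0% of all gene tests. Without the first reference gene these counts were 4, 0, 3 and 2. Under TMM these counts were 2 in hindbrain and 0 in the other regions, and 1 left cortex comparison was called higher. Depth fell at T3 in hindbrain and the cortices as given above, and its part in these values was not tested.

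Irs1 was lower in the PM in left cortex and midbrain. Averaged over genotypes and time points, PM minus AM was -0.26 in left cortex (SE 0.05, adjusted p = 3.13e-05), with group means averaging 54.9 in the PM and 65.6 in the AM over 22 pools each, and -0.15 in midbrain (SE 0.05, adjusted p = 0.0337). There 32.6% and 11.6% of all genes were called lower. With the positive control probes as scale the differences were -0.06 (adjusted p = 0.70) and -0.11 (adjusted p = 0.361), and without the first reference gene the midbrain one was -0.13 (adjusted p = 0.0890). It was -0.18 in hindbrain (adjusted p = 0.155) and -0.14 in right cortex (adjusted p = 0.0659), not called. The right cortex difference was called with DESeq2 (-0.14, adjusted p = 0.0453) and without the second reference gene (-0.16, adjusted p = 0.0305). Under TMM it was -0.07 (adjusted p = 0.318). In the left cortex of HOM mice at T2 the AM pools gave 71.2 and 75.8 and the PM pools 59.0, 45.9 and 52.9, without overlap (-0.48, SE 0.13, adjusted p = 0.0127, edgeR). NON at T1 gave 68.8 and 72.9 in the AM and 58.7, 54.2 and 48.2 in the PM (-0.40, adjusted p = 0.0459), a call lost in 22 of the fits that left out a pool. The midbrain call was lost in 10 such fits, and the HOM T2 call in 2, those without AM pool 5 (adjusted p = 0.179) or PM pool 6/9 (adjusted p = 0.0604). Under TMM the HOM T2 difference was -0.29 (adjusted p = 0.123) and that of NON at T1 was -0.31 (adjusted p = 0.186).

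For genotype, 1 of 39 comparisons was called for Irs1. In right cortex at T3 in the AM, HOM pools gave 49.9, 58.4, 50.8, 77.2 and 54.9 and NON pools 39.7, 45.2 and 44.3, without overlap (0.43, SE 0.12, adjusted p = 0.0149). In this comparison 15 of all 43 genes were called higher and the median gene was at 0.24, while over all such comparisons in right cortex 5.81% of gene tests were. Without NON pool 10 the adjusted p was 0.177, and under TMM the difference was 0.24 (adjusted p = 0.839).

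Irs2, the other substrate, known for its part in beta-cell survival and in hypothalamic control of body weight, followed the time of day in the cortex. In left cortex the average of the group means was 634 over 22 AM pools and 472 over 22 PM pools, a PM minus AM difference of -0.42 (SE 0.06, adjusted p = 8.75e-07), the lowest of the 43 genes. In right cortex these averages were 611 and 456, a difference of -0.41 (SE 0.05, adjusted p = 6.20e-08), the second lowest. The differences gave equal weight to the 8 groups that held both times, among them HOM at T3 with 1 PM pool, and amounted to a fall by 25.4% in left cortex and by 24.8% in right cortex. In left cortex 32.6% of genes and in right cortex 14.0% were called lower, and the median gene changed by -0.08 and -0.05.

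The other regions moved less. In midbrain the average of the Irs2 group means was 586 in the AM and 533 in the PM (-0.14, SE 0.03, adjusted p = 0.00386), where 11.6% of genes were called lower. In hindbrain it was 498 and 466 (-0.09, SE 0.04, adjusted p = 0.161), where 6.98% of genes were. Under TMM the values were -0.34 in left cortex, -0.35 in right cortex, -0.12 in midbrain (adjusted p = 0.00285) and 0.00 in hindbrain. Whether the cortical difference exceeded that in midbrain or hindbrain was not tested. When the positive control probes alone set the scale, the difference was -0.21 in left cortex and -0.30 in right cortex, and neither was called. The hypothalamic markers Hcrt, Mch, Agrp, Pomc and Hdc were not called between PM and AM in midbrain.

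**Figure D4:**
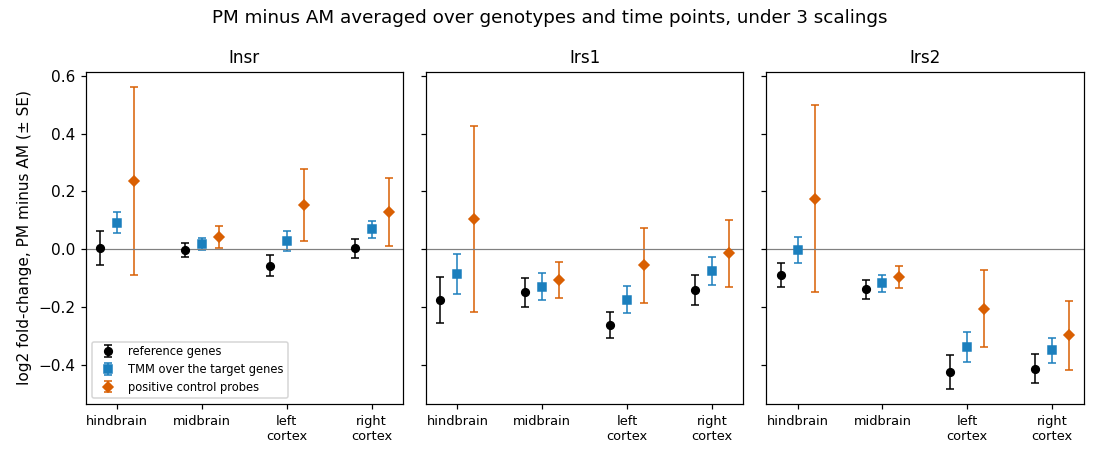
PM minus AM log2 fold-change (± SE) of Insr, Irs1 and Irs2, averaged over genotypes and time points, in 4 regions and under 3 scalings. Irs2 in left and right cortex lies at -0.42 and -0.41 with the reference genes and at -0.34 and -0.35 with TMM, and Insr stays between -0.06 and 0.00 with the reference genes.

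The difference could be read within the 7 groups of each region that held at least 2 pools at both times. In left cortex the PM mean was the lower in 7 of 7 groups and all PM pools lay below all AM pools in 5. In right cortex it was lower in 7 of 7, with 4 groups apart. In midbrain the counts were 6 and 3, and in hindbrain 5 and 3. Over all 43 genes, all PM pools lay below all AM pools in 18.6% of gene tests in left cortex, 19.9% in right cortex, 15.3% in midbrain and 18.6% in hindbrain. NON mice at T1 had 741 and 743 in left cortex in the AM and 488, 471 and 445 in the PM (-0.66, SE 0.16, adjusted p = 0.0106). Their right cortex had 767 and 717 in the AM and 479, 396 and 447 in the PM (-0.75, SE 0.14, adjusted p = 2.58e-04, edgeR).

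HOM mice at T1 gave 743 and 836 in left cortex in the AM and 509 and 491 in the PM (-0.66, SE 0.18, adjusted p = 0.0176). Their right cortex gave 724 and 795 against 479 and 463 (-0.69, SE 0.15, adjusted p = 0.00142). HOM mice at T2 had 609 and 612 in right cortex in the AM and 429, 435 and 381 in the PM (-0.56, SE 0.14, adjusted p = 0.0151). In each of these groups the times did not overlap. Those 5 were the called comparisons of Irs2 among 28, all lower in the PM. Within groups, 3.65% of left cortex, 3.32% of right cortex, 0.664% of midbrain and 0% of hindbrain gene tests were called lower. With groups of 2 or 3 pools, leaving out any AM pool or PM pool 6 ended the NON T1 call in left cortex (adjusted p of 0.0565 to 0.112), and 3 of the 4 HOM T1 pools did so there (0.0633 to 0.178). The right cortex T1 calls were kept in every fit that left out a pool, and the HOM T2 call was lost without AM pool 5 (adjusted p = 0.0768).

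HEM mice showed no called difference in either cortex. NON at T2 and T3 and the left cortex of HOM at T2 showed none either. Whether the PM minus AM difference of HEM differed from that of NON or HOM was not tested. The left cortex of HEM mice had 648 and 561 in the AM and 652, 474 and 481 in the PM at T2, which overlapped. At T3 it had 453, 440, 450 and 583 in the AM and 376 and 417 in the PM, without overlap. At T2 their right cortex had 565 and 517 in the AM and 583, 460 and 500 in the PM, which overlapped. At T3 the right cortex had 460, 437, 509 and 619 in the AM and 462 and 490 in the PM. The NON right cortex at T3 had 441, 490 and 488 in the AM and 427, 527 and 395 in the PM, so its times overlapped as well. In NON right cortex the PM minus AM difference at T1 differed from that at T3 by -0.68 (SE 0.19, adjusted p = 0.0461), the 1 call for the 3 genes among 48 tests of such differences, where 0.145% of all gene tests were called. It lost its call in 24 of the fits that left out a pool and under TMM.

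**Figure D5:**
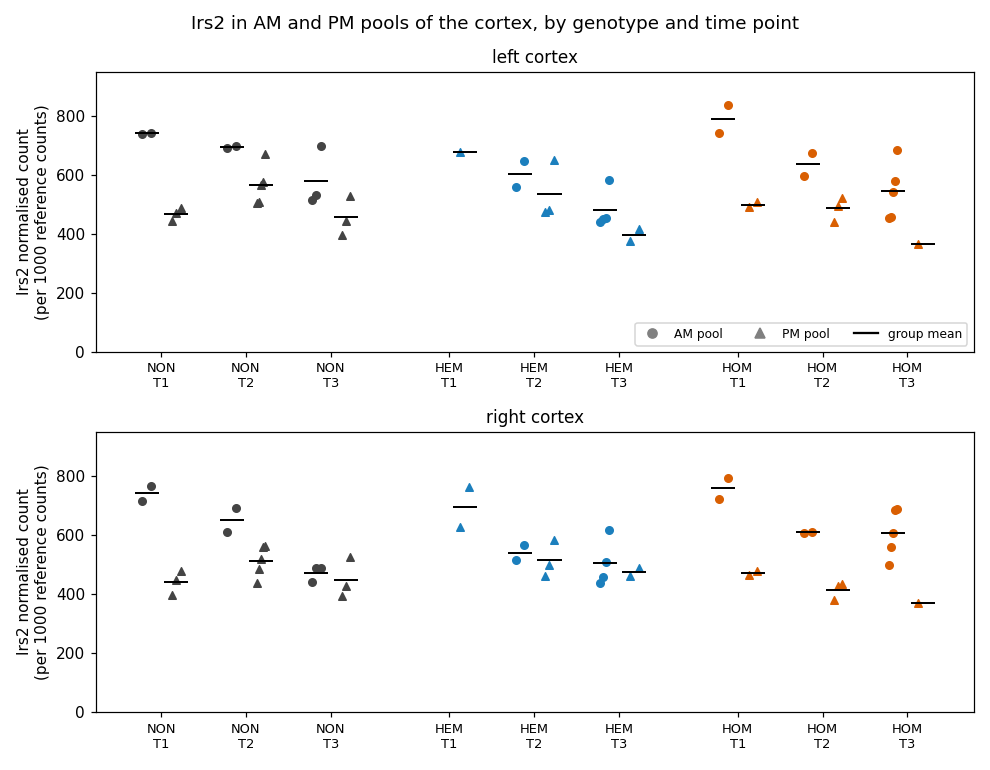
Irs2 normalised counts (per 1000 reference counts) in AM (circles) and PM (triangles) pools of left and right cortex, by genotype and time point, with group means as lines. NON and HOM at T1 have AM pools at 717 to 836 and PM pools at 396 to 509, while NON pools of the right cortex at T3 overlap between 395 and 527.

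Irs2 also varied together across the regions of the same mice. After the group mean was taken off, its log2 deviations in left and right cortex correlated at r = 0.83 over 44 pools, in midbrain and left cortex at 0.70, in midbrain and right cortex at 0.61, and in hindbrain and the other regions at 0.39 to 0.58. For Insr these values were 0.00 to 0.36, and for Irs1 -0.26 to 0.45. The points share mice and collection time, and the values are given as a description.

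Between regions Irs2 was lowest in hindbrain on the reference gene scale. Its mean was 488 ± 70.9 in hindbrain, 566 ± 54.3 in midbrain, 556 ± 116 in left cortex and 548 ± 121 in right cortex (SD, n = 46, 49, 48 and 49). Relative to hindbrain it was higher by 0.21 in midbrain (adjusted p = 1.24e-09), 0.16 in left cortex (adjusted p = 3.50e-06) and 0.14 in right cortex (adjusted p = 3.46e-05). The median over all 43 genes was 0.43, 0.16 and 0.16 in these contrasts, so Irs2 lay at or below the median gene. Right cortex was below midbrain by -0.07 (adjusted p = 0.0245), where the median gene was also at -0.07. Of 15 alternatives 5 lost that call, among them TMM (-0.06, adjusted p = 0.0598), and 3 reversed the difference. These directions depended on the scale. Under TMM the first 3 differences were -0.06, -0.09 and -0.12, and without the third reference gene the cortices gave -0.04 and -0.08.

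Genotype was called for Irs2 in 4 of 39 comparisons, always higher in the transgenic mice. Under TMM, 1 of these 4 was kept, and with only the 2 groups compared none was. Over all 43 genes, at most 1 was called lower in each of these 4 comparisons. In right cortex at T1 in the PM the HEM pools gave 765 and 629 and the NON pools 479, 396 and 447, without overlap (0.66, SE 0.14, adjusted p = 0.00131), where 6 of 43 genes were called higher. It was 0.51 without HEM pool 8 (adjusted p = 0.0755) and 0.52 under TMM (adjusted p = 0.00243). In right cortex at T3 in the AM, HOM pools gave 498, 688, 559, 685 and 608 and NON pools 441, 490 and 488, apart by 0.36 (SE 0.11, adjusted p = 0.0152), in the comparison where 15 of 43 genes were called higher. That call was lost without NON pool 10 (adjusted p = 0.177), HOM pool 2/7 (0.0526) or HOM pool 6 (0.0503). The difference was 0.17 under TMM (adjusted p = 0.839) and 0.34 with T3 pools chosen by labelled diabetic history (adjusted p = 0.0649). In left cortex no genotype comparison was called, where 0.775% of gene tests were called higher. HEM against NON at T1 in the PM was not tested there, because HEM had 1 such pool.

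In hindbrain at T3 in the AM the NON pools gave 348 and 366, the HEM pools 447 and 495 and the 3 HOM pools 481 to 575. HEM exceeded NON by 0.40 (SE 0.13, adjusted p = 0.0234) and HOM by 0.51 (SE 0.12, adjusted p = 0.00415). Of all 43 genes 11 and 8 were called higher in these comparisons, with medians of 0.15 and 0.17, and 5.12% of gene tests were over all such comparisons in hindbrain. NON pool 7 and HOM pool 9 among these held little RNA, and without the 3 low-RNA pools the adjusted p was 0.0982 for HEM and 0.0872 for HOM. That left 1 NON pool, assumed to vary like the other groups, as did choosing T3 pools by labelled diabetic history, which gave 0.36 (adjusted p = 0.151) and 0.53 (adjusted p = 0.0469). Under TMM the differences were 0.21 (adjusted p = 0.318) and 0.38 (adjusted p = 0.0589). The HEM call was also lost without HEM pool 2/3 (adjusted p = 0.133) or HEM pool 12 (0.0564). Averaged over time points and collection times, HEM exceeded NON in hindbrain by 0.18 (SE 0.05, adjusted p = 0.0145), and HOM by 0.16 (adjusted p = 0.0531). The first was the 1 averaged genotype call among the 36 tests of the 3 genes, lost without HEM AM pool 4/6 or NON AM pool 1/3 of T2 (adjusted p = 0.0653 and 0.0564) and at 0.11 under TMM (adjusted p = 0.222). In all, 7.75% of averaged genotype tests were called in hindbrain, 17.8% in midbrain, 6.20% in left cortex and 2.33% in right cortex.

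With age Irs2 was called lower at T3 in 3 of 6 comparisons in hindbrain, 4 of 6 in midbrain, 3 of 5 in left cortex and 4 of 6 in right cortex, beside 41.9%, 29.5%, 46.0% and 45.0% of all gene tests, and under TMM in none, with 2 in right cortex called higher. In NON hindbrain it went from 513 at T1 to 373 at T3 (-0.46, SE 0.08, adjusted p = 1.80e-05), without overlap, and the difference was -0.44 (adjusted p = 2.55e-04) without the 3 low-RNA pools. The T3 change in left cortex relative to midbrain was -0.14 (adjusted p = 0.0324) on the reference gene scale, where the median gene was at -0.15, and 0.14 under TMM (adjusted p = 0.0460). In right cortex it was 0.00 on the reference gene scale and 0.26 under TMM (adjusted p = 9.04e-05). From T1 to T2, 1 of 33 tests of the 3 genes was called, Irs2 in HEM right cortex (697 to 514, -0.44, SE 0.14, adjusted p = 0.0307), lost without T1 PM pool 8, T2 PM pool 7/12 or T2 PM pool 8/14, where 5 of 43 genes were called. Over all comparisons of T2 with T1, 1.90% of gene tests were called.

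The panel holds 14 further genes of the insulin pathway, listed by role rather than by their values. Between PM and AM, 6 were lower and 0 higher in left cortex, against 14 and 1 of all 43 genes, among them the phosphatase Ptp1b (-0.34, adjusted p = 4.11e-07) and the kinase Akt2 (-0.14, adjusted p = 0.00377). The others lower there were Akt1, Gsk3b, mTor and Pik3ca, the catalytic subunit of phosphoinositide 3-kinase. In right cortex Ptp1b (-0.32, adjusted p = 6.20e-08) and Gsk3b were lower, in midbrain Ptp1b (-0.10, adjusted p = 0.0337) and Pik3ca, and in hindbrain the transcription factor Foxo1 was higher (0.23, adjusted p = 2.72e-05). The ligand Ins1 was not called in any region, at -0.72 in hindbrain (adjusted p = 0.182).

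At T3 against T1 in NON mice, 9 of the 14 were lower and 0 higher in hindbrain, 7 and 0 in midbrain, 8 and 2 in left cortex and 10 and 1 in right cortex. Over all 43 genes these counts were 26 and 1, 22 and 0, 19 and 6, and 22 and 5. In right cortex the largest were the phosphodiesterase Pde3b (-0.91, adjusted p = 3.46e-14), Pik3ca (-0.82, adjusted p = 1.31e-15), the kinase Pdk1 (-0.80, adjusted p = 1.55e-08) and Ptp1b (-0.68, adjusted p = 5.69e-10). In midbrain Ptp1b (-0.35), mTor (-0.25) and Pik3ca (-0.24) were lower by less. Averaged genotypes gave 7 of 14 higher in HEM than in NON midbrain, the largest Pdk1 (0.20, adjusted p = 0.00253), and 4 of 14 in hindbrain, among them mTor (0.24, adjusted p = 0.0353) and Foxo1 (0.21, adjusted p = 0.00146). Over all 43 genes 14 were higher in HEM midbrain and 8 in HEM hindbrain. HOM exceeded NON for 1 of the 14 in midbrain and 1 in hindbrain, beside 3 and 2 of all 43 genes. Against HEM in midbrain, 1 of the 14 was higher and 2 were lower in HOM, beside 1 and 3 of all 43 genes. In both cortices 0 of 14 were called between HEM and NON.

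Between regions, midbrain exceeded hindbrain for 8 of the 14 and fell below it for 3, against 29 and 6 of all 43 genes. Foxo1 (0.99) and Pdk1 (0.95) were higher in midbrain and Pde3b (-0.85) lower. Each cortex exceeded midbrain for 9 and fell below it for 5, where all 43 genes gave 17 and 19 in left and 16 and 20 in right cortex, with Pdk1 higher (0.76 in left and 0.80 in right cortex) and the ligand Ins2 lower (-1.20 and -1.11). Between the cortices 0 of 14 were called.

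Genes whose pool-to-pool pattern was most like each of the 3 were ranked by the correlation of log2 normalised counts over 187 pools, after the means of 67 groups were taken off. Insr was nearest to Pik3ca (r = 0.69), Pdk1 (0.68) and Pias3, an inhibitor of Stat3 (0.68), against a median of 0.21 over the 42 other genes. Irs2 was nearest to Ptp1b (0.71), the histamine receptor Hrh1 (0.51) and the histone deacetylase Hdac5 (0.49), against a median of 0.13. Irs1 was nearest to Hrh1 (0.47), Iapp, the amylin gene (0.43), and Ins1 (0.41), against 0.13. Under TMM the first of each became 0.75 for Insr, 0.62 for Irs2 and 0.23 for Irs1. Without the 3 low-RNA pools Irs1 was nearest to Akt2 (0.52), with Hrh1 at 0.40, Ins1 at 0.36 and Iapp at 0.34. The 3 genes nearest to Insr and the 3 nearest to Irs2 were then still those named. Pools of a pair share their RNA and their reference genes, and no test was made of these values.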

How the data were processed

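Total RNA of brain pieces was extracted with lipid tissue kits, and equal RNA of 1 or 2 mice of the same genotype and collection time was pooled and read on an nCounter panel of 43 target genes, 3 reference genes, 6 positive and 8 negative control probes. The authors deposited raw counts per probe and pool, neither normalised nor background subtracted. The study's own NanoStringDiff results were not used. One of the reference genes is not reported by name here. Insr, Irs1, Irs2 and the gene lists were chosen with earlier results of these data known.

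Counts were tested with edgeR 4.0.16 in R 4.3.3 (quasi-likelihood, prior count 0.125), with library size set to the geometric mean of the 3 reference genes, so a pool with few reference counts is scaled up and is less precise. For each region 1 model gave every combination of genotype, time point and collection time its own mean, over pools with a labelled time, and contrasts of single groups needed at least 2 pools in each. Averages weighted groups equally, including groups with 1 pool (HOM T3 PM, and HEM T1 PM in left cortex), and levels beside them are averages of group means. Regions were compared in 1 model with the pool of mice as a block (181 pools, 50 blocks), and the T3 change by region was added to it. P-values were adjusted over the 43 genes of each contrast. The genes named beside the 3 were the 14 pathway genes, with values for at most 4 per comparison, those of largest change, the hypothalamic markers and the 3 genes most correlated with each. The alternatives used other scalings, TMM, DESeq2 1.42.0, limma 3.58.1, other reference genes, T3 pools chosen by labelled diabetic history, filters, blocks and left-out pools. No 2 pools of a group agreed within sampling noise (lowest chi-square 4.68 per degree of freedom over 198 pairs). Where leaving out pools left a group with 1 pool, that pool was assumed to vary like the other groups. The procedure was tested on simulated data.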

Additional observations from a re-analysis of the deposited data

Results flagged for a closer look

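Within the 33 combinations of gene and group of 4 or 5 pools, 6 values stood far from the other pools by Dixon's criterion, which chance meets in about 1 of 20 groups. Insr was 459 in midbrain T3 HEM AM pool 1 (others 493 to 497) and 325 in left cortex T3 HEM AM pool 4/5 (others 363 to 369). Irs1 was 56.2 in midbrain T2 NON PM pool 2/15 (others 66.0 to 67.1) and 63.0 in right cortex T3 HEM AM pool 1 (others 48.7 to 51.0). Irs2 was 420 in hindbrain T3 NON PM pool 12 (others 377 to 384) and 583 in left cortex T3 HEM AM pool 6 (others 440 to 453).

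Effects that differed between groups by a test of the difference were the Irs2 PM minus AM difference in NON right cortex, which was -0.68 at T1 relative to T3, and T3 changes relative to midbrain. The latter were -0.70 for Insr and -0.65 for Irs1 in hindbrain, -0.60 for Insr and -0.14 for Irs2 in left cortex, and -0.65 for Insr in right cortex.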

How the results depend on the processing

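For the 3 genes, 6 genotype calls within groups became 1 under TMM, 10 with positive control probes (1 of the 6 among them), 3 adjusted over all contrasts of a region, 1 with only the 2 groups compared, and 1 and 0 at a log2 change above 0.58 and 1. The 1 averaged genotype call became 0 under TMM or without the second reference gene, 7 with positive control probes (that call not among them, adjusted p = 0.191), 3 without the first and 2 without the third reference gene, and 2 with background subtracted, DESeq2 or limma. It was 0 at either limit. The 7 collection time calls within groups became 3 with positive control probes (0 of the 7 among them), and 4 and 0 at the limits. Of the 7, 4 were kept with only the 2 groups compared, 5 under TMM and 5 without the third reference gene. The 5 averaged ones became 0 with positive control probes and at both limits. The 49 time point calls became 22 under TMM, and 17 and 0 at the limits. The 1 difference call became 0 under TMM, without the first or the third reference gene, with limma, with the wider adjustment and at a limit of 1. The 7 region calls became 13 without the third reference gene, 11 with T2 pools only, and 1 and 0 at the limits. The 5 T3 calls by region became 8 under TMM, 9 with positive control probes and 0 at a limit of 1. The causes were not tested, except that a limit keeps larger changes only.

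Leaving out 1 pool gave 4 to 8 genotype calls within groups, 0 to 2 averaged, 5 to 8 and 3 to 6 collection time calls, 46 to 51 time point calls, 0 to 2 difference calls, 7 to 9 region calls and 4 to 5 T3 calls by region.

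Without the block for the pool of mice, 8 region calls were made. Pairing T2 PM pools of matched age as a block gave 6 genotype calls as before, but none of the 6 is a T2 PM contrast, so this block could not bear on them. Deviations of these pools correlated at -0.35 to 0.60. All 3 pairs were over 0.1 in HOM right cortex alone (0.19 to 0.35), where no T2 PM contrast of the 3 genes was called with or without the block.

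TMM turned these T3 differences: Irs2 against T1 and T2 in NON (0.040 and 0.022 in hindbrain, 0.057 and 0.067 in right cortex), in NON midbrain against T1 (1.25e-04), in left cortex against T2 (0.12 in NON, 0.043 in HEM), in HEM hindbrain against T2 (0.095), in HOM right cortex against T1 (0.011) and in left cortex relative to midbrain (0.14). It turned Irs1 against T2 in left cortex (0.19 in NON, 0.15 in HEM) and NON right cortex (0.012), and Insr against T2 in NON midbrain (0.0060). Positive control probes turned HEM hindbrain T3 minus T1 of Insr (0.41) and Irs1 (0.30).

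Between regions, TMM turned midbrain, left cortex and right cortex minus hindbrain to -0.20, -0.24 and -0.20 for Insr, all called, and to -0.055, -0.087 and -0.12 for Irs2. Without the third reference gene left and right cortex minus hindbrain were -0.20 and -0.16 for Insr, both called, and -0.043 and -0.078 for Irs2. For Insr, midbrain minus hindbrain was -0.13 with T1 and -0.14 with T2 pools, left cortex minus midbrain 0.13 and 0.17, and right cortex minus midbrain 0.17 and 0.25. For Irs1, T3 pools gave 0.026 for midbrain and 0.014 for left cortex minus hindbrain, and positive control probes gave 0.024 and 0.23 for the cortices minus hindbrain. Right cortex minus midbrain was 0.38, 0.35 and 0.35 for Insr, Irs1 and Irs2 with positive control probes, and for Irs2 0.0083 without the first reference gene and 0.033 with T1 pools. Of single values under all alternatives, 1028 kept their side of the threshold, 135 lost and 27 gained a call, and 41 reversed. Among the 1028 were uncalled values that changed sign. For example, Irs1 PM minus AM in hindbrain went from -0.18 to 0.11 with positive control probes.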

Other observations

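For the 3 HEM pools of T1 in each region with no labelled collection time, Irs2 was 574, 805 and 507 in left cortex and 686, 893 and 517 in right cortex (pools 1/2, 3/4 and 5/6). The same mice gave 604, 677 and 570 in midbrain and 656, 619 and 499 in hindbrain. Pool 3/4 was the highest of the 3 in midbrain and both cortices. Their Irs1 was 172, 99.4 and 156 in hindbrain and 55.0 to 79.4 in the other regions. Insr was 701, 574 and 546 in hindbrain, 518 to 530 in midbrain and 559 to 663 in the cortices.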
